A study of Homo sapiens with 6 samples.

Results

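Nuclear genes for the subunits of the mitochondrial respiratory chain and ATP synthase were followed in SKBR3 cells with and without overexpression of CTTN (cortactin, an actin-binding protein). Genes were taken by name, from symbols that begin with NDUFA, NDUFB, NDUFC, NDUFS, NDUFV, UQCR, COX followed by 4I or by a digit from 5 to 8, or ATP5. Names with a hyphen, and names outside ATP5 that end in P and digits, were left out. This gave 138 of 54644 gene rows. Of these, 81 are subunits, with 37 in complex I, 9 in complex III, 18 in complex IV and 17 in complex V. The other rows are 8 complex I assembly factors (NDUFAF genes), 4 further proteins (COX7A2L, ATP5IF1, ATP5S and ATP5MGL) and 45 ATP5 pseudogenes. NDUFA4 and NDUFA4L2, named for complex I, were counted with complex IV. In 22 rows the member shares its row with another gene name, so that the reads of both are added together.

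SKBR3 is a human HER2-amplified breast adenocarcinoma line. The control group was stably transduced with the empty lentiviral vector pLVX and the CTTN group with pLVX carrying CTTN, each selected with puromycin, and 3 libraries of poly(A) RNA were made from each. The labels do not say whether the 3 libraries of a group came from separate cultures, so the p-values measure only the spread between these libraries, which may be technical. The extraction note mentions tumours beside the cell lines, whereas the labels name the cell line as the source.

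Complex I takes electrons from NADH, complex III passes them from ubiquinol to cytochrome c, and complex IV hands them to oxygen. These complexes pump protons across the inner membrane, and complex V, the ATP synthase, lets the protons back through a rotating ring to make ATP. Most of the proteins are encoded in the nucleus and imported, and they are assembled with a few proteins made from mitochondrial DNA.

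The libraries held 34887079 to 41279658 fragments counted in genes, with control library 2 the deepest and CTTN library 3 at 35478949. CTTN was measured at 263, 329 and 180 FPKM (fragments scaled by transcript length and library size) in CTTN libraries 1, 2 and 3, and at 104, 108 and 108 FPKM in the control libraries. It was higher in every CTTN library, with a log2 fold change of 1.35 ± 0.22 (SE, n = 3 against 3, adjusted p = 0.025, edgeR quasi-likelihood test with Benjamini-Hochberg adjustment). The call was lost without CTTN library 1 (edgeR adjusted p = 0.123) or without any 1 control library (edgeR adjusted p = 0.138 to 0.154), while the log2 fold change stayed between 1.10 and 1.57. Of the 8 epithelial and HER2-amplified markers 7 were abundant, ERBB2 at 1644 to 1790 FPKM, but CDH1 (E-cadherin) stayed at or below 0.244 FPKM. Fibroblast, endothelial and blood markers were at or below 0.591 FPKM in all libraries, apart from COL1A1 (2.83 to 4.26), CDH5 and CD68, whose row also holds EIF4A1. CDH5, an endothelial cadherin, was lower in the CTTN group, at 1.58, 2.02 and 1.43 FPKM against 3.96, 4.45 and 4.03 (log2 fold change -1.49, edgeR adjusted p = 0.0084), while the other endothelial markers PECAM1 and VWF stayed at or below 0.166 FPKM; its part in the results was not tested. CTTN library 3 stood apart, with a Pearson correlation of log2 CPM of 0.968 to 0.972 with the controls, against 0.995 to 0.996 among the controls.

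Of the 138 rows, 86 passed the filter on low counts, and no pseudogene did. These 86 genes were mostly abundant: their control means had a median of 177 FPKM. The plot of subunit levels in control cells shows the order within each complex. In complex I, NDUFB9, an accessory subunit, was far above the rest with a control mean of 2726 ± 67.5 FPKM (SD, n = 3), and NDUFC2, in a row shared with KCTD14, followed at 390. UQCRH, the hinge protein that sits by cytochrome c1, led complex III at 531 FPKM. COX4I1, the common form of subunit 4, led complex IV at 715 FPKM, followed by COX8A at 582 in a row shared with OTUB1. The catalytic β subunit ATP5F1B led complex V at 1090 FPKM, followed by ATP5MF, a membrane subunit in a row shared with PTCD1, at 846.

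**Figure D1:**
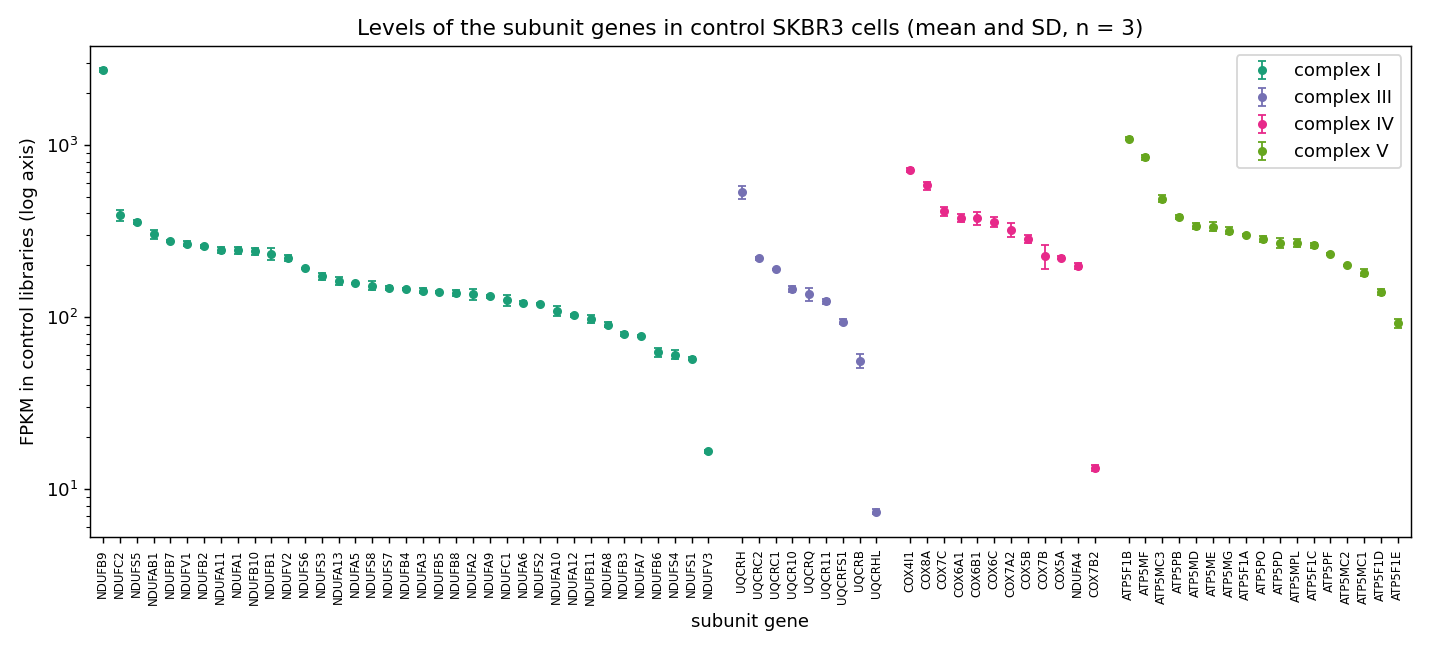
Control levels of the 75 subunit genes that passed the filter, by complex; the vertical axis is FPKM on a log scale, points are means of 3 control libraries and bars are SD. NDUFB9 is highest at 2726 FPKM, and UQCRHL (7.39) and COX7B2 (13.2) are lowest in their complexes.

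The tissue-restricted isoforms were nearly silent. COX4I2 (the lung form of subunit 4), COX7A1 (the muscle form of subunit 7a) and COX8C were listed at 0 in all 6 libraries. COX6A2 reached at most 0.107 FPKM, COX6B2 0.128 and NDUFA4L2, a hypoxia-linked relative of NDUFA4, 0.410. Their common partners were abundant, with control means of 377 FPKM for COX6A1 (in a row shared with GATC), 374 for COX6B1, 322 for COX7A2 and 199 for NDUFA4. ATP5MGL and 43 of the 45 pseudogenes also stayed under 1 FPKM, so that 50 rows did so in all libraries. COX7B2, the testis form of subunit 7b, was the exception among such isoforms and is described first.

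COX7B2 was the one gene of the 86 called at an adjusted p under 0.05. Across all genes 14433 were tested, of which 2.29% were called higher and 1.91% lower, 4.2% in all, so 1 of 86 higher and 0 lower is not above the background. With the study's further rule of at least a 1.5-fold change the members' counts were the same (1.76% and 1.44% of all genes). COX7B2 was at 31.6, 24.2 and 43.0 FPKM in CTTN libraries 1 to 3 and at 13.3, 13.7 and 12.7 FPKM in the control libraries. All CTTN libraries lay above all control libraries, and the lowest of them was CTTN library 2. The log2 fold change was 1.38 ± 0.25 (SE, n = 3 against 3, adjusted p = 0.033, edgeR). The estimated counts behind these values were 368, 266 and 539 in CTTN libraries and 155, 156 and 140 in control libraries. COX7B2 was still called with CTTN library 2 alone against the controls (log2 fold change 0.82, edgeR adjusted p = 0.00011, a fit in which the lone library is assumed to vary like the controls). It was not called after leaving out CTTN library 1 (edgeR adjusted p = 0.134) or any 1 control library (edgeR adjusted p = 0.150 to 0.177).

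COX7B, the common form of the same subunit, did not pass the test (log2 fold change 0.35 ± 0.26, edgeR adjusted p = 0.348). COX7B was at 237, 183 and 334 FPKM in CTTN libraries and at 259, 189 and 232 FPKM in control libraries, and the groups overlapped. COX7B2 made up 11.8, 11.7 and 11.4% of the summed FPKM of the pair in CTTN libraries and 4.90, 6.77 and 5.18% in control libraries. The share was thus alike in the 3 CTTN libraries although their levels of each gene differed. COX7B2 lies at chr4:46734827-46909235 and COX7B at chrX:77899438-77907373 (GRCh38 loci of the files).

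The 250 bases upstream of the 2 RefSeq gene starts (GRCh38.p14) are shown to let the called gene be compared with its partner COX7B, together with that of NDUFV3, the next gene by adjusted p. Capitals mark matches on either strand to the SP1 box GGGCGG, the CAAT box CCAAT, the TATA box TATAAA, the ETS factor site CCGGAAG, the YY1 site AAGATGGC or the palindromic consensus site of NRF1; where matches overlap, the capitals run together. The windows are chr4:46909246-46909495 on the minus strand for COX7B2, chrX:77899218-77899467 on the plus strand for COX7B and chr21:42893059-42893308 on the plus strand for NDUFV3.
COX7B2 promoter: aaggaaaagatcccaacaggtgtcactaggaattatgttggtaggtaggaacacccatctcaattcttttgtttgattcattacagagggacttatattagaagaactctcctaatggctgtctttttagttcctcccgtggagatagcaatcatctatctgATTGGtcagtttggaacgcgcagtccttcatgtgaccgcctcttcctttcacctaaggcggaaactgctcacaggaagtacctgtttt
COX7B promoter: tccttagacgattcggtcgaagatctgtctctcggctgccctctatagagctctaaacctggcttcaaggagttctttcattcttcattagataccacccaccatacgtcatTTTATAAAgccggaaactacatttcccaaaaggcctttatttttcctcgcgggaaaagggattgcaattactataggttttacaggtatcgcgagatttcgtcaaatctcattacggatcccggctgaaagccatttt
NDUFV3 promoter: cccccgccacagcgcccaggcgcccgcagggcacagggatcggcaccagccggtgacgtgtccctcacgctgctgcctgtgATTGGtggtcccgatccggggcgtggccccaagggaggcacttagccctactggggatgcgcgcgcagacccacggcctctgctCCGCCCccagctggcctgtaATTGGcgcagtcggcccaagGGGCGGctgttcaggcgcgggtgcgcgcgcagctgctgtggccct
COX7B2 held a CCAAT match alone, COX7B held overlapping TATA box matches on both strands, and NDUFV3 held 2 SP1 and 2 CCAAT matches. Of the 75 subunit genes tested, 63 matched a RefSeq promoter by symbol or synonym. Among those 63, an NRF1 site was found in 12 (19.0%, against 5.53% of all 27305 promoters) and an ETS site in 15 (23.8% against 8.82%). An SP1 box was found in 57.1% against 42.3%, CCAAT in 31.7% against 33.0%, TATAAA in 9.52% against 11.1% and a YY1 site in 1.59% against 1.37%. These are matches of letters, not sites shown to be bound, and they were not tested.

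The other 85 genes did not pass the test, and their fold changes leaned one way. The log2 fold change was above 0 in 83 of 86, with a median of 0.43 against 0.01 over all genes tested. The median was 0.44 in complex I, 0.41 in complex III, 0.45 in complex IV, 0.45 in complex V and 0.33 in the assembly factors. At an unadjusted p under 0.05 edgeR gave 27 of the 86 genes (31.4%), near the 30.2% of all genes tested, with 26 higher and 1 lower where all genes split into 16.3% higher and 14% lower. By DESeq2, over the same genes, 48 of the 86 (55.8%) were under it against 30.7% of all genes, with 54.7% against 15.5% higher, and after adjustment 9 (10.5%) were called higher and 0 lower, against 6.74% and 6.42% of the same 14433 genes (7.04% and 6.71% of the 13813 genes to which DESeq2 gave an adjusted p). limma on log2(FPKM + 1) had 16 (18.6%) against 23.6% of all genes, and called COX7B2 alone (0.734% of all genes higher and 0.547% lower). Since these are bulk libraries, a change in the share of cells and a change in RNA per cell cannot be told apart.

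The lean was seen in CTTN libraries 1 and 3, while CTTN library 2 lay with the controls. The median difference in log2(FPKM + 1) from the control mean over the 86 genes was 0.35, 0.01 and 0.81 in CTTN libraries 1 to 3, and 0.05, -0.01 and -0.04 in the control libraries. All 4 complexes gave the same order, with medians in CTTN library 3 of 0.81 in complex I, 0.84 in III, 0.90 in IV and 0.78 in V, and in CTTN library 2 from -0.01 to 0.01. The order CTTN 3, CTTN 1, CTTN 2 from high to low held for 81 of the 86 genes (94.2%) against 37.7% of all genes tested. It also held for 64.6% of genes with transcripts under 1000 bases, 97.9% of 48 cytosolic ribosomal protein genes and 87.1% of 31 proteasome subunit genes. The ribosomal and proteasome lists were taken by symbol from rows of 1 gene only, whereas the members include shared rows. CTTN library 1 was above all controls in 81 of the 86 genes (94.2%, against 41.7% of all genes tested) and CTTN library 3 in 82 (95.3% against 46.1%). CTTN library 2 was above all controls in 21 (24.4% against 35.4%), within their range in 37 (43% against 34.7%) and below all of them in 28 (32.6% against 29.9%). Together the 138 rows took 3.85, 3.45 and 4.36% of all FPKM in CTTN libraries 1 to 3 and 3.35 to 3.47% in control libraries.

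**Figure D2:**
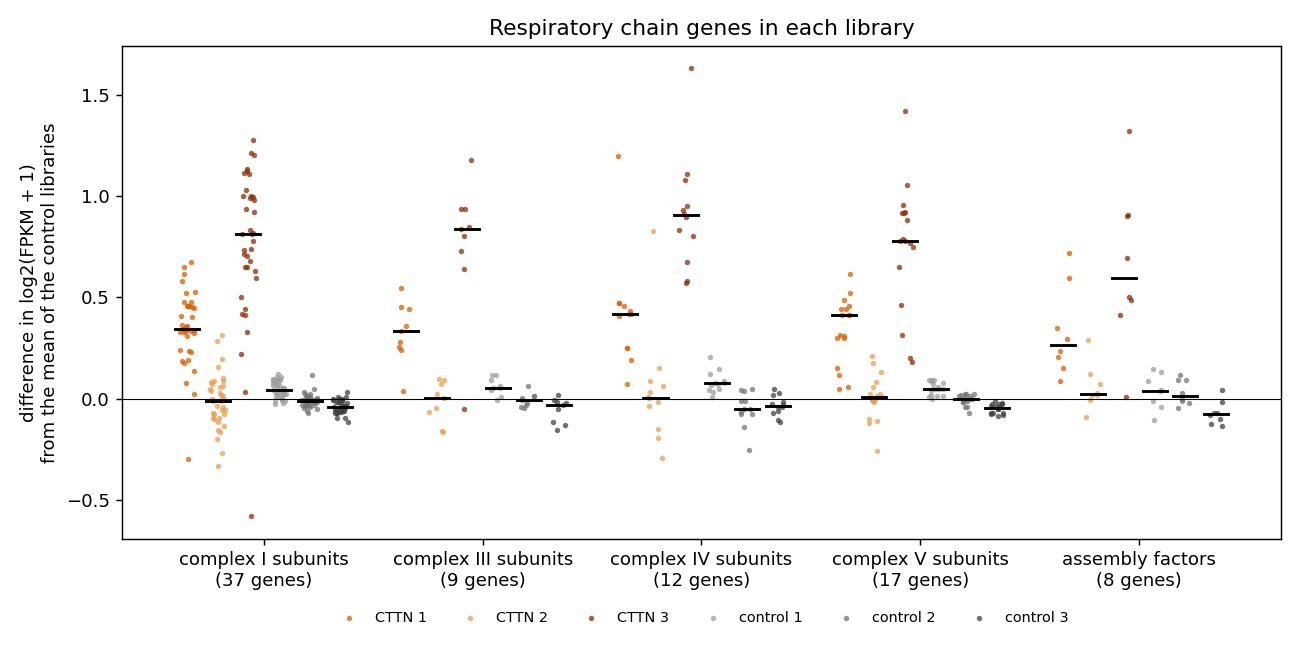
Each point is 1 gene in 1 library; the vertical axis is the difference in log2(FPKM + 1) from the mean of the 3 control libraries, and black bars are medians. In every complex CTTN 3 is highest (median 0.81 in complex I), CTTN 1 is between (0.34) and CTTN 2 lies with the controls (-0.01).

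Leaving out single CTTN libraries changed the counts greatly. Without CTTN library 2, edgeR called 76 genes higher and 1 lower, where 23.0% and 24.2% of all genes were called. Without CTTN library 3 it called 3 higher, COX7B2, NDUFA8 and NDUFV3, and 0 lower (background 4.54% and 3.99%). Without CTTN library 1, or without any 1 control library, it called none, with 14 members (16.1%, against 18.0% of all genes) at an unadjusted p under 0.05 without CTTN library 1 and 6 to 9 (6.90 to 10.3%, against 15.9 to 18.5%) without a control library. With CTTN library 2 alone against the controls it called 5 higher and 5 lower, with a median log2 fold change of -0.01 (background 7.73% and 7.39%).

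The differences moved with transcript length. The members are short: the median transcript length was 829 bases against 2349 bases over all genes tested. Over the 1674 genes with transcripts under 1000 bases, the median difference in log2(FPKM + 1) was 0.28, 0.01 and 0.60 in CTTN libraries 1 to 3, and over the 5048 genes above 3000 bases it was -0.17, 0.02 and -0.32. The class medians of short genes were thus above 0, and those of long genes below 0, in CTTN libraries 1 and 3, while 312 of the 1674 short genes had a log2 fold change below 0. Over the 86 members, the Pearson correlation of log2 length with the difference was -0.57, -0.09 and -0.64 in CTTN libraries 1 to 3, and over all genes it was -0.50, 0.01 and -0.60. In the control libraries the correlation over the members was -0.25, -0.12 and 0.43. The genes in these correlations share a library and are not independent. Other lists, chosen after the members' values were seen, were set beside them. Cytosolic ribosomal protein genes (median length 680 bases) gave medians of 0.33, -0.06 and 0.77, and proteasome subunit genes (1480 bases) 0.26, 0.07 and 0.54. CTTN library 2 was above all controls in 64.5% of the proteasome genes and in 24.4% of the members, against 35.4% of all genes tested. All CTTN libraries were above all controls in 54.8% and 23.3%, against 18.2%.

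**Figure D3:**
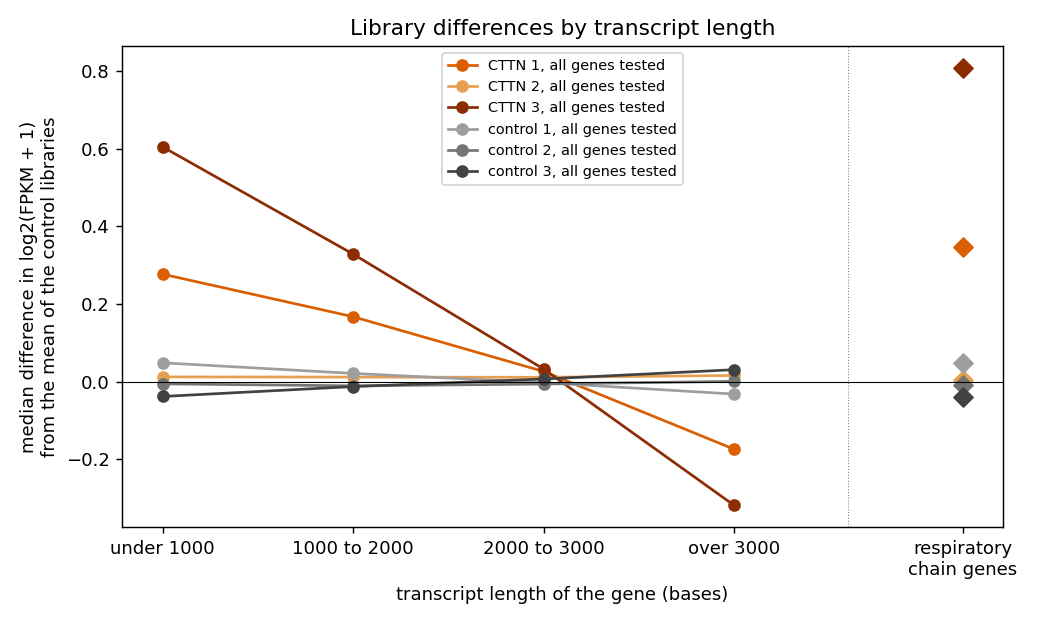
Lines join the medians over all genes tested in 4 classes of transcript length for each library, and diamonds give the median over the 86 respiratory chain genes; the vertical axis is the difference in log2(FPKM + 1) from the control mean. In CTTN 3 the median falls from 0.60 under 1000 bases to -0.32 over 3000 bases, and in CTTN 2 it stays between 0.01 and 0.02.

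With a smooth trend of each library's counts on length removed, the member medians were 0.05, -0.03 and 0.12 in CTTN libraries 1 to 3 and the median log2 fold change was 0.05. edgeR then called 6 genes higher and 5 lower (background 9.67% and 8.78%). Those higher were COX7B2, NDUFA8, NDUFV3, NDUFB10, NDUFA6 and ATP5F1D, and those lower were ATP5MC2, NDUFB2, NDUFA10, NDUFS1 and NDUFV2. COX7B2 kept a log2 fold change of 0.93 (adjusted p = 0.00077, edgeR with the length offset).

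In complex I the highest fold changes were in accessory subunits. The 7 nuclear core subunits, which carry the flavin and the iron-sulfur clusters, had a median log2 fold change of 0.28, and the 30 accessory subunits 0.46. The core rows were longer (median 1023 against 713 bases), and with the length offset both medians were small, at 0.04 and 0.03. None of the 37 was called by edgeR, with 10 higher and 1 lower at an unadjusted p under 0.05 (30.2% of all genes were under it in either direction), and DESeq2 called 5 higher (7.04% of all genes). NDUFV3, an accessory subunit of the NADH-oxidising module, came nearest. It was at 21.0, 20.4 and 22.8 FPKM in CTTN libraries and 16.8, 16.5 and 16.3 in control libraries. The CTTN libraries were close to each other and all above the controls, with a log2 fold change of 0.47 ± 0.10 (SE, n = 3 against 3, edgeR adjusted p = 0.051). Its row holds a short transcript of 1575 bases, at 14.7, 14.2 and 15.5 FPKM against 12.2, 11.7 and 11.7, and a long one of 4676 bases, at 5.67, 4.95 and 6.78 FPKM against 3.96, 3.62 and 3.62. Both forms were above all control values in every CTTN library.

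NDUFA8, an accessory subunit on the intermembrane-space side, was at 144, 112 and 208 FPKM in CTTN libraries and 93.4, 87.8 and 88.8 in control libraries (log2 fold change 0.77 ± 0.21, edgeR adjusted p = 0.085). NDUFB10, an accessory subunit of the membrane arm, was at 377, 276 and 525 FPKM against 251, 238 and 231 (log2 fold change 0.65 ± 0.20, edgeR adjusted p = 0.099). NDUFAF2, an assembly factor that acts late in the building of complex I, was at 64.6, 47.6 and 73.7 FPKM against 40.0, 41.4 and 35.3 (log2 fold change 0.67 ± 0.18, edgeR adjusted p = 0.079). In all 3 genes every CTTN library lay above every control library, with CTTN library 2 closest. With CTTN library 2 alone against the controls their log2 fold changes were 0.31, 0.20 and 0.27. These 3 genes were chosen after their values were seen, CTTN library 2 included, so this adds no support. NDUFB9, the most abundant member, was at 3926, 2892 and 5413 FPKM against 2781, 2745 and 2651, and was not called (log2 fold change 0.57 ± 0.20, edgeR adjusted p = 0.130).

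NDUFS1, the largest core iron-sulfur subunit, went the other way, in a row of 3423 bases that it shares with a GCSH pseudogene. It was at 46.4, 56.9 and 38.0 FPKM in CTTN libraries and 56.9, 56.3 and 58.6 in control libraries. CTTN libraries 1 and 3 were below the controls and CTTN library 2 was among them (log2 fold change -0.30 ± 0.09, edgeR adjusted p = 0.10). NDUFA10, an accessory subunit, had a log2 fold change of -0.09 (edgeR adjusted p = 0.469), and NDUFA5 was the single complex I gene besides NDUFS1 whose highest CTTN value was in library 2, at 165, 167 and 160 FPKM against 156, 156 and 157.

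Of the complex I subunits in shared rows, NDUFA13 (with YJEFN3) had the highest log2 fold change, at 249, 169 and 394 FPKM in CTTN libraries against 173, 156 and 158 (0.73 ± 0.25, edgeR adjusted p = 0.125). It was called by DESeq2, and its groups overlapped through CTTN library 2. The log2 fold change was 0.61 for NDUFA11 (with FUT5), 0.52 for NDUFS8, 0.50 for NDUFC1 (with MGARP), 0.40 for NDUFS3 (with PTPMT1), 0.38 for NDUFB8 (with SEC31B), 0.36 for NDUFC2, 0.30 for NDUFA7 (with CD320), 0.21 for NDUFA9 (with DYRK4 and others), 0.16 for NDUFB2 (with ADCK2) and 0.12 for NDUFV2 (with ANKRD12). None of these was called by edgeR, and in each the groups overlapped. In complexes III and V, UQCR11 (with MBD3) and ATP5MD, a membrane subunit, had 0.41 and 0.51 and were not called either.

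Complex III gave 9 tested genes and none called by edgeR, with 2 higher and 0 lower at an unadjusted p under 0.05, a share below the 30.2% of all genes, and DESeq2 also called 0. UQCRFS1, the Rieske iron-sulfur protein, was at 114, 100 and 147 FPKM against 97.4, 91.3 and 92.9 in control libraries, and UQCRB, a ubiquinone-binding subunit, at 70.2, 59.4 and 100 against 59.4, 58.0 and 49.8. In both genes the CTTN libraries lay above the controls, by less than 0.1 FPKM in UQCRB between CTTN library 2 and the highest control. The core protein UQCRC1 was at 258, 190 and 342 FPKM against 189, 191 and 189, with CTTN library 2 among the controls (log2 fold change 0.39 ± 0.17, edgeR adjusted p = 0.168). The other core protein, UQCRC2, differed least, at 225, 231 and 212 FPKM against 220, 215 and 223 (log2 fold change 0.13 ± 0.07, edgeR adjusted p = 0.248). Within UQCRC2, the transcript of 2615 bases was at 114, 95.8 and 129 FPKM against 92.7, 94.3 and 88.0, while one of 1415 bases was at 48.3, 71.2 and 14.4 against 46.1, 59.4 and 60.0, so its near-level sum hides transcripts that differ between the CTTN libraries in opposite ways. UQCRHL, a retrocopy of UQCRH, was at 1.35 to 1.39% of the summed FPKM of both in CTTN libraries and 1.31 to 1.45% in control libraries. The 2 copies are near-identical, so reads may have been split between them and the level of UQCRHL is uncertain.

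In complex IV 12 genes were tested and COX7B2 alone was called (8.33%, against 2.29% of all genes higher), by edgeR and by DESeq2. At an unadjusted p under 0.05, edgeR had 5 higher and 0 lower, where 30.2% of all genes were under it, and DESeq2 8 higher and 0 lower, where 30.7% were. Besides COX7B2, the CTTN libraries were all above the controls for COX5B, at 395, 302 and 614 FPKM against 300, 275 and 278 (log2 fold change 0.62 ± 0.24, edgeR adjusted p = 0.149). They were also above for COX7C, in a row shared with another gene, at 554, 456 and 731 against 429, 421 and 382 (0.54 ± 0.20, edgeR adjusted p = 0.135). COX4I1 was at 954, 706 and 1366 FPKM against 739, 710 and 696, with CTTN library 2 among the controls. The remaining complex IV genes, among them COX6A1, COX6B1, COX7A2, COX8A and NDUFA4, had log2 fold changes of 0.29 to 0.59 and overlapping groups. COX7A2L, which helps complexes III and IV join into supercomplexes and is no subunit here, had 0.26 (edgeR adjusted p = 0.295).

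In complex V none of 17 genes was called by edgeR, with 5 higher and 0 lower at an unadjusted p under 0.05, a share near the 30.2% of all genes, and DESeq2 called 2 higher (7.04% of all genes). ATP5F1A and ATP5F1B, the α and β subunits of the head, had the lengths of 1901 and 1797 bases and log2 fold changes of 0.15 and 0.05. ATP5F1B was at 1134, 1002 and 1234 FPKM against 1101, 1099 and 1069, and CTTN library 2 was the lowest of the 6. ATP5F1D, the δ subunit of the rotor stalk, had the largest change of the complex, at 214, 145 and 375 FPKM against 145, 141 and 133 (log2 fold change 0.74 ± 0.26, edgeR adjusted p = 0.123). ATP5PF and ATP5PO, both of the side stalk that holds the head still, had 0.51 and 0.53, with all CTTN libraries above the controls. The row of ATP5PO is shared with another gene. ATP5IF1, the inhibitor of ATP hydrolysis, was at 269, 211 and 387 FPKM against 191, 190 and 180 (log2 fold change 0.50 ± 0.18, edgeR adjusted p = 0.132).

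The rotor ring is made of the c subunit, for which ATP5MC1, ATP5MC2 and ATP5MC3 encode the same mature protein. ATP5MC3 was the most abundant, at 604, 494 and 764 FPKM in CTTN libraries and 511, 486 and 463 in control libraries. ATP5MC1 was at 246, 180 and 335 FPKM against 187, 184 and 172. ATP5MC2 was at 206, 166 and 275 FPKM against 202, 199 and 198, so that CTTN library 2 was below every control. None was called (log2 fold changes 0.38, 0.48 and 0.13 for ATP5MC3, ATP5MC1 and ATP5MC2), and ATP5MC2 was called lower with CTTN library 2 alone (-0.24, edgeR adjusted p = 0.014) and with the length offset (-0.28, adjusted p = 0.0068).

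Across the 86 genes, all 3 CTTN libraries were above all 3 control libraries in 20 (23.3%, against 18.2% of all genes tested) and below them in 0 (against 14.2%). The share above was near the background, and the 20 were spread over the enzymes: 9 complex I subunits, 2 in complex III, 3 in IV, 4 in V, the assembly factor NDUFAF2 and the inhibitor ATP5IF1. At least 1.5-fold in the fitted value were 10 of the 86 (11.6%) against 8.52% of all genes tested and 26.8% of genes with transcripts under 1000 bases.

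For the rest of the pathway, 86 genes of complex II, cytochrome c, the mitochondrial genome, assembly and regulation were listed, and 71 rows were tested. One was called higher and none lower by edgeR, 3 higher and 0 lower by DESeq2 and none by limma, which is not above the shares of all genes (2.29% and 1.91% by edgeR, 7.04% and 6.71% by DESeq2, 0.734% and 0.547% by limma). The called gene was SDHAF3, an assembly factor of complex II, at 43.1, 46.6 and 42.4 FPKM in CTTN libraries and 32.7, 33.8 and 32.9 in control libraries. Its CTTN libraries were alike and all above the controls (log2 fold change 0.58 ± 0.09, edgeR adjusted p = 0.022). The call was lost with the length offset (0.26, edgeR adjusted p = 0.090) and after leaving out CTTN library 1 or any 1 control library (edgeR adjusted p = 0.117 to 0.153). In complex II itself SDHB, the iron-sulfur subunit, was at 206, 159 and 253 FPKM against 142, 140 and 140 (log2 fold change 0.55 ± 0.16, edgeR adjusted p = 0.098), and SDHA, SDHC and SDHD had 0.07, 0.04 and 0.12. Cytochrome c1 (CYC1) and cytochrome c (CYCS) had 0.26 and 0.13. The mitochondrially encoded genes fell in 4 rows of several genes each, and none was called (1 at an unadjusted p under 0.05 by edgeR, 0 called by DESeq2 and limma). The row of MT-CO1, MT-ND4 and others was at 20512, 20872 and 17888 FPKM against 20623, 19230 and 20320. The row of MT-ND1 and MT-ND2 also holds the ribosomal RNA genes MT-RNR1 and MT-RNR2. It was at 4545, 3912 and 4370 against 3893, 3795 and 3746. The row of MT-CYB was at 1281, 1196 and 1180 against 1044, 976 and 1037. The row of MT-ND6 was at 351, 401 and 290 against 325, 367 and 350. CTTN library 3, highest for most of the nuclear subunit genes, was lowest of all libraries in the rows of MT-CO1 and of MT-ND6. It was above the controls in the rows of MT-ND1 and MT-CYB. Among 15 regulators tested none was called, with 3 higher and 2 lower at an unadjusted p under 0.05 by edgeR, a share near the 30.2% of all genes, and DESeq2 called 0.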

How the data were processed

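The authors sequenced poly(A) RNA (TruSeq stranded mRNA, paired-end) and deposited CuffNorm tables of gene-level estimated counts and FPKM. Per the labels, bcl2fastq 2.20.0, Trimmomatic, STAR, Cufflinks and GRCh38 were used; the study's methods name other trimming and hg19, and the loci in the files fit GRCh38. The deposited estimated counts are divided by a size factor per library, which the deposited sample sheet gives as a ratio; multiplied back, 100% of values under 100 were whole to within 0.02. FPKM depends on transcript length as assigned by Cufflinks. The column names given for control libraries differ by 1 between the labels and the sample sheet, so controls were mapped by group and numbered by the sheet.

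Estimated counts were rounded and tested with edgeR 4.0.16 (TMM, filterByExpr, quasi-likelihood test, Benjamini-Hochberg over all 14433 genes; R 4.3.3), called at an adjusted p under 0.05; the second rule added a 1.5-fold change. limma 3.58.1 used log2(FPKM + 1), and DESeq2 1.42.0 was an alternative. The edgeR, limma and DESeq2 code was run on simulated counts. These held no trend with transcript length, and limma was run there on counts, not on FPKM. The length offset (lowess, span 0.3) and the fit of CTTN library 2 alone were added after seeing the data. Text lengths are FPKM-weighted transcript means. Named were called members, the 2 highest per complex, paralog families, members under 1 FPKM (the pseudogenes as a group) and members sharing a row, with the few others chosen after their values were seen. Members and lists were chosen with earlier results of these data known. The same-numbered libraries of the 2 groups had correlated deviations of 0.03, 0.08 and -0.19, so the numbers do not pair them. Depth is the total of counts with the size factor multiplied back; intervals from replicates cover only these 3 against 3 libraries. Promoters are RefSeq sequences of GRCh38.p14.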

Additional observations from a re-analysis of the deposited data

How the results depend on the processing

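COX7B2 was the only respiratory chain gene called with relative log expression or upper-quartile factors and with no low-count filter. The same held with the CuffNorm scaling undone and by limma at either pseudocount. Counting only subunits in rows of 1 gene reused the p-values of the main fit, so COX7B2 stayed called by construction. DESeq2 called 9, the length offset 11 and CTTN library 2 alone 10; leaving out 1 library gave 0 to 77 (77 without CTTN library 2). Over all genes 606 were called: 1900 by DESeq2, 185 and 180 by limma with pseudocounts 1 and 0.1, 2181 with CTTN library 2 alone, 2663 with the length offset, and 15 to 6953 without 1 library. For the rest of the pathway the count was 3 by DESeq2, 0 by limma, 3 with CTTN library 2 alone, 4 with the length offset and 0 to 42 without 1 library. With the replicate number as a block, although the numbers do not pair the libraries, the counts were 109 of all genes, 0 respiratory chain genes and 0 of the rest of the pathway, COX7B2 had an adjusted p of 0.078 by edgeR, and CTTN had a log2 fold change of 1.30.

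Member medians with the length offset were 0.052 in CTTN library 1, -0.034 in CTTN library 2 and 0.123 in CTTN library 3, and -0.011 in CTTN library 2 on TMM-scaled CPM. Without 1 library the CTTN level had a log2 fold change of 1.10 to 1.57. With CTTN library 2 alone 47 of the 83 positive log2 fold changes turned negative, and with the length offset 21 did. Those called after turning were, with CTTN library 2 alone, -0.24 for ATP5MC2, -0.24 for COX7B, -0.22 for NDUFA7 and -0.26 for NDUFB2, and with the length offset -0.28 for ATP5MC2, -0.26 for NDUFB2 and -0.21 for NDUFV2. The causes were not tested. At a depth of 34887079 to 41279658 fragments the pseudogenes and silent isoforms failed the filter on low counts, and their changes were not tested.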
